A study of Mus musculus with 6 samples.

Results

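Imprinted genes are genes whose RNA is made mainly from the copy inherited from the mother or mainly from the copy inherited from the father. The set described here holds 39 mouse genes with known parent-of-origin expression, chosen by gene symbol through their Ensembl identifiers. The rule uses no measured value, but the set was drawn up with earlier results of these data known. Of these, 38 were found among the 24749 genes of the deposited table, and Peg13 was not analysed here. By textbook knowledge, 19 of the 39 genes are expressed from the paternal copy, 19 from the maternal copy, and Gnas gives different transcripts from both. They lie in 16 clusters or single loci.

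RNA from whole mouse kidneys at E15.5 (embryonic day) was sequenced in 6 libraries, 3 from each of 2 groups. The first group carried Foxd1cre with Yapc/c and Tazc/c, conditional alleles of Yap1 and Wwtr1 (the gene for TAZ), and is called knockout here. The second was labelled Wild-type (Cre negative), and its alleles at Yap1 and Wwtr1 were not given in the sources used here. All 6 libraries were from mixed-strain mice, with kidneys kept in RNAlater and RNA extracted with the RNeasy Micro Kit. Foxd1 drives the recombinase in progenitors of the kidney stroma (interstitial fibroblasts, pericytes, smooth muscle, mesangial cells), so the epithelium of the nephron and of the ureteric tree is not its target. Since no label ties a library to its own embryo or litter, the p-values speak only of variation among these 6 libraries, part of which may be technical.

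Imprinted genes sit in clusters, each governed by an imprinting control region that carries DNA methylation on only the maternal or only the paternal chromosome. Many of them set the size of the fetus: paternally expressed genes such as Igf2 tend to promote growth, and maternally expressed genes such as Cdkn1c, Grb10 and Igf2r tend to restrain it. A large group of them is high in fetal mesenchyme and is shut down together after birth. YAP and TAZ, the transcriptional co-activators controlled by Hippo signalling, reach DNA through the TEAD factors, which bind the letters GGAATG. The values are FPKM, fragments counted per kilobase of RNA and scaled to each library's depth, so levels can be set beside each other between genes. They do not tell the parental copies apart: the allele named for each gene is background, and loss or relaxation of imprinting was not measured.

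The libraries held approximately 12800000 to 15500000 fragments, estimated from the lowest values, and 1 fragment on a transcript of 2 kb was worth 0.0322 to 0.0391 FPKM. Mean Wwtr1 went from 18.8 ± 1.26 FPKM (wild type) to 12.9 ± 0.635 FPKM (knockout, SD, n = 3 each), a log2 change of -0.51 that passed the test (limma, adjusted p = 0.0235). Yap1 read 51.0 ± 4.95 and 45.4 ± 2.94 FPKM, and its log2 change of -0.16 did not pass (limma, adjusted p = 0.378). Summed markers of the kidney stroma (12 genes) ran from 816 to 891 FPKM in wild type and from 604 to 646 in knockout. Of these 12 genes, 10 had a log2 change below 0 and 2 fell (Col3a1 and Ogn), while Pdgfra stood at 111% of wild type, Meis2 at 104% and Tcf21 at 97.4%. Summed pericyte and smooth muscle markers (10 genes) ran from 158 to 167 and from 123 to 130 FPKM. Here the smooth muscle genes Acta2 and Tagln fell, to 54.9% and 52.8% of wild type. Myh11 and Cnn1, also of smooth muscle, stood at 71.4% and 72.4% and were not called. The pericyte genes pointed both ways, and none was called. Rgs5 stood at 75.0% without overlap between groups (limma, adjusted p = 0.0723) and Pdgfrb at 83.3%. Cspg4, Kcnj8, Abcc9 and Notch3 stood at 103%, 125%, 113% and 100.2%. Other sums were higher in knockout without overlap: nephron progenitor (149 to 160 against 167 to 176 FPKM), ureteric bud and collecting duct (135 to 139 against 152 to 157), podocyte (92.2 to 105 against 106 to 120) and cartilage (7.87 to 10.98 against 14.3 to 14.9). In whole kidneys, fewer cells of a type and less RNA per cell cannot be told apart. Wild-type library 3 stood apart: its 8 chromaffin and sympathetic markers summed to 99.0 FPKM, against 1.98 to 2.47 in the other 5 libraries, and it was the highest library for 8 of these 8 genes. Its 8 skeletal muscle markers summed to 93.4 FPKM against 8.98 to 20.2, and it was again the highest for 8 of 8. No gene of either list was at 0 in all libraries. The same library was the lowest of the 6 for 8 of 8 proximal tubule markers (68.7 FPKM summed, against 91.4 to 129 in the others) and for 4 of 8 podocyte markers. The main counts over the 39 imprinted genes, and the changes of genes that this library moved, are given with and without it. Counts below 0 and at an unadjusted p over the other gene lists are from all 6 libraries.

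More imprinted genes were lower than higher in the knockout kidneys. Of the 38 genes in the table, 35 reached a mean of 0.5 FPKM and were tested, and 5 of these 35 fell (limma on log2(FPKM + 1), Benjamini-Hochberg adjusted p under 0.05 over 16899 genes): Peg3, Zim1, Plagl1, Mest and Slc38a4. Over all genes tested, 0.604% fell and 0.13% rose by the same rule. None of the 35 rose. At an unadjusted p under 0.05 (limma), 14 of the 35 were lower and 2 higher, where 6.94% and 9.14% of all genes were. The log2 change was below 0 in 25 of the 35, which is 71.4% against 50.4% of all genes, and its median was -0.13 against -0.002. The count of 5 rested on all 6 libraries: it was 3, 2 and 3 without wild-type library 1, 2 and 3, and 2, 1 and 1 without knockout library 1, 2 and 3. Without wild-type library 3, Peg3, Zim1 and Plagl1 were called lower and Asb4 was called higher, where 0.568% of all genes fell and 0.302% rose. The median was then -0.08, and 62.9% of the imprinted genes lay below 0, against 50.7% of all genes. At an unadjusted p under 0.05 (limma), 11 of the 35 were then lower and 4 higher, where 1388 and 1880 of all 16899 genes were.

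The start regions of 4 of the 5 genes that fell are printed because their letters can be read for 2 motifs. These are the TEAD motif GGAATG and TGCCGC, the core bound by ZFP57, which keeps methylation at imprinting control regions. The 5 genes were called lower in the same comparison, and whether they vary together was not tested. Each window runs from 250 bases before to 50 bases after a RefSeq gene start (GRCm38.p6), is written 5′ to 3′ on the gene's own strand, and has the matches on either strand in capitals (CATTCC and GCGGCA are the same motifs on the other strand). Peg3 (chr7:6730370-6730669, minus strand) holds 1 GGAATG, Zim1 (chr7:6696383-6696682, minus strand) holds 1 of each motif sharing letters, Plagl1 (chr10:13090582-13090881, plus strand) holds 1 TGCCGC, and Mest (chr6:30737800-30738099, plus strand) holds 2 TGCCGC. RefSeq lists 3 starts for Mest: a second lies 3 bases from the one shown and holds the same 2 matches, and another (chr6:30733256-30733555) holds neither motif.
Peg3: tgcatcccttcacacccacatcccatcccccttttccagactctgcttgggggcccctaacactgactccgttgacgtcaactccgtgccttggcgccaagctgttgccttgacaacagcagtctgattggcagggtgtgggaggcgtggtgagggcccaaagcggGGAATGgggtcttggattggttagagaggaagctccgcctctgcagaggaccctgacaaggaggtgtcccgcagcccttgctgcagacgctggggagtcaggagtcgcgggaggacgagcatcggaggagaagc
Zim1: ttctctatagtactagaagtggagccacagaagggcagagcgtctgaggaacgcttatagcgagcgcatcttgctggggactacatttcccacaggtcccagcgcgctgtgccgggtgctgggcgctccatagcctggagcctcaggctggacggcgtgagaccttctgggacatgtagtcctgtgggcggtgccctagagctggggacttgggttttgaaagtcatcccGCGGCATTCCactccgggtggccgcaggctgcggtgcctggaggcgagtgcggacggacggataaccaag
Plagl1: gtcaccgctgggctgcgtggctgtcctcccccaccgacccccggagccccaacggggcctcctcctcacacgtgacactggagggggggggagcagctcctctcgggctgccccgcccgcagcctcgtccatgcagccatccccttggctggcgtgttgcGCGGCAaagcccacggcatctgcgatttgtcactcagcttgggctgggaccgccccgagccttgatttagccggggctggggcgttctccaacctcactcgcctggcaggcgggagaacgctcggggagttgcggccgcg
Mest: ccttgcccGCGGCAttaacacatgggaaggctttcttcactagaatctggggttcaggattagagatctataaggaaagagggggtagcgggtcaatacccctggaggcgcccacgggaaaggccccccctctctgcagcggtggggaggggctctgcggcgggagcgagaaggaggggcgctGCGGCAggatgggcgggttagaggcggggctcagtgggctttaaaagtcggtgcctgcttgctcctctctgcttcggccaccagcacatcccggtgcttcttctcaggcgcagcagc
The single GGAATG of the Peg3 window also lies in the window of Usp29, which starts on the other strand of the same region. The 3 windows listed for Slc38a4 held neither motif. Of all 32851 windows, 14.7% held GGAATG and 11.6% held TGCCGC, and of the 50 windows of 31 imprinted genes these were 18% and 22%. These shares count windows, not separate loci. The matches shared by 2 Mest windows, and by the Peg3 and Usp29 windows, were counted in each window. CpG pairs were denser in the imprinted windows, with a median of 12 against 7 over all windows, and numbered 13 in Peg3, 20 in Zim1, 26 in Plagl1 and 17 in the Mest window shown (8 in the Mest window without a match). A match is a stretch of letters, and binding was not measured in these samples.

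Peg3 and Zim1 are neighbours on chromosome 7, encode zinc finger proteins, and are expressed from opposite parental copies. Peg3 (chr7:6703892-6730431, ENSMUSG00000002265), paternally expressed, read 113, 112 and 121 FPKM in the wild-type libraries and 81.6, 77.0 and 80.2 in the knockout libraries. Every knockout value lay below every wild-type value, and the spread within each group was small beside the gap. The knockout mean was 69.0% of wild type, a log2 change of -0.53 (SE 0.06, 95% interval -0.66 to -0.40, limma, adjusted p = 0.00766). It remained called without any 1 of the 6 libraries, at -0.49 without wild-type library 3 (adjusted p = 0.0232).

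Zim1 (chr7:6671269-6696450), maternally expressed, showed the largest log2 decrease of the 35 tested imprinted genes when all 6 libraries were used. It read 11.7, 10.6 and 13.4 FPKM in wild type and 6.40, 4.95 and 4.87 FPKM in knockout, with no overlap. The mean went from 11.9 ± 1.39 to 5.41 ± 0.863 FPKM (SD, n = 3 each), 45.5% of wild type. On the log2 scale this was a change of -1.01 (SE 0.12, 95% interval -1.29 to -0.73, limma, adjusted p = 0.0127). Without wild-type library 3 it was -0.93 (adjusted p = 0.0311). The call was lost without knockout library 2 (adjusted p = 0.0703) and without knockout library 3 (adjusted p = 0.0599). Usp29, a paternally expressed deubiquitinase gene that starts beside Peg3, was near the detection limit at 0.240, 0.323 and 0.742 FPKM in wild type and 0.470, 0.268 and 0.394 FPKM in knockout, and was not tested. Both tested genes of this cluster fell, and their expressed parental copies differ.

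Plagl1 (chr10:13060504-13131694) encodes a paternally expressed zinc finger transcription factor, known as a regulator of other imprinted genes and of growth arrest. It read 31.9, 37.2 and 42.7 FPKM in wild type against 22.9, 21.8 and 23.4 FPKM in knockout. The knockout libraries were tightly grouped below all wild-type libraries, which were more spread. The log2 change was -0.68 (SE 0.10, limma, adjusted p = 0.0314), 60.9% of wild type. Leaving out wild-type library 1 or 3 kept the call, with adjusted p = 0.0339 without library 3. It was lost without wild-type library 2 (adjusted p = 0.142) and without knockout library 1 (0.142), 2 (0.155) or 3 (0.117), and with no filter on low values (0.0501), libraries scaled to equal sums (0.0517) or moderation without the robust option (0.0659).

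Mest and Slc38a4 fell by less. Mest (chr6:30723547-30748465), a paternally expressed gene of the alpha/beta hydrolase fold that marks fetal mesoderm, read 450, 417 and 456 FPKM in wild type and 333, 339 and 327 FPKM in knockout. Its mean level ranked 229 among all genes of the table, and each knockout library was lower than each wild-type library. The knockout mean was 75.5% of wild type, a change of -0.40 on the log2 scale (SE 0.06, limma, adjusted p = 0.0326). Slc38a4 (chr15:96994820-97055956), a paternally expressed amino acid transporter, read 36.3, 34.0 and 37.0 FPKM in wild type and 27.7, 28.1 and 27.7 FPKM in knockout. The groups did not overlap, at 77.7% of wild type and a log2 change of -0.35 (SE 0.05, limma, adjusted p = 0.0326). Both calls were lost when any 1 library was left out, with adjusted p from 0.0699 to 0.170 for Mest and from 0.0647 to 0.157 for Slc38a4. Quantile normalization ended the call of Mest (adjusted p = 0.0565) and scaling to equal sums that of Slc38a4 (adjusted p = 0.0556). The summed stroma markers and the summed pericyte and smooth muscle markers were also lower in knockout. The nephron progenitor, ureteric, podocyte and cartilage sums were higher. The values of the proximal tubule sum overlapped, and the part of such shifts in the decrease of these 5 genes was not tested.

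**Figure D1:**
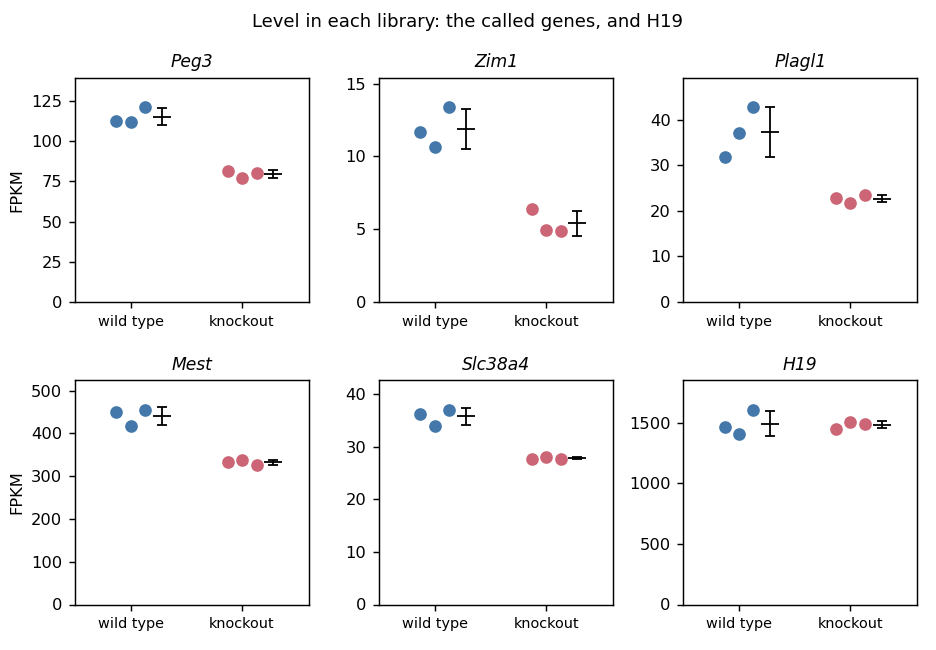
FPKM in each library (points, replicates 1 to 3 from left to right) with the group mean and SD (bars) for the 5 imprinted genes that fell and for H19, wild type beside knockout. In the panels of the 5 genes the 3 knockout libraries lie below the 3 wild-type libraries, with Mest near 441 against 333 FPKM and Zim1 near 11.9 against 5.41 FPKM, and for H19 the groups overlap.

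Decreases were called in both parental classes. Of 16 tested paternally expressed genes, 4 fell, 13 had a log2 change below 0, and the median was -0.23. Of 18 tested maternally expressed genes, 1 fell, 12 lay below 0, and the median was -0.06. Over all genes, 0.604% fell and 50.4% lay below 0. Without wild-type library 3, 2 paternally and 1 maternally expressed genes were called lower, 12 and 10 lay below 0, and the medians were -0.11 and -0.05. In that fit 0.568% of all genes fell, and the difference between the classes was not tested. The classes also differ in how many of their genes have imprinting known only in some tissues, described next. Summed over its 18 genes, the paternal class came to 1011, 989 and 1140 FPKM in wild type and 826, 840 and 830 FPKM in knockout. Summed over its 19 genes, the maternal class came to 2650, 2617 and 2998 FPKM and to 2575, 2636 and 2659 FPKM. The paternal sums did not overlap between groups and the maternal sums did. Imprinting of 9 of these 19 genes, and of 1 of the 18, is known only in some tissues. Their RNA here need not come from 1 parental copy. Single genes made up much of each sum. Mest gave 441 of a mean 1047 FPKM in wild type and 333 of 832 in knockout. H19 gave 1495 of 2755 and 1485 of 2623 FPKM.

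The set can also be split into genes imprinted in most fetal tissues and genes whose imprinting is known only in some tissues, such as placenta or brain. Of 25 tested broadly imprinted genes, 5 fell and the median log2 change was -0.21, where 0.604% of all genes fell and their median was -0.002. Of 10 tested genes with tissue-restricted imprinting, which are expressed from both copies elsewhere, 0 were called in either direction (limma), 3 were lower and 2 higher at an unadjusted p under 0.05 (6.94% and 9.14% of all genes), and the median was 0.07. Wild-type library 3 was the highest library for 22 of the 25 and for 2 of the 10. Without it, 3 broadly imprinted genes were called lower and their median was -0.11, where 0.568% of all genes fell and the median was -0.003. Of the genes with restricted imprinting, 1 was then called higher (Asb4), where 0.302% of all genes rose, and the median was 0.04. At an unadjusted p under 0.05 (limma), 1 was lower and 3 higher, where 1388 and 1880 of all 16899 genes were. The 2 splits overlap, since 8 of the 18 tested maternally expressed genes and 1 of the 16 paternally expressed ones have restricted imprinting. With all 6 libraries, 12 of 15 paternally and 9 of 10 maternally expressed genes among the broadly imprinted lay below 0. Their medians were -0.21 and -0.15. Of the 8 maternally expressed genes with restricted imprinting, 3 lay below 0 (median 0.07), against 50.4% of all genes. The differences between these classes were not tested. Over the 35 genes, the groups did not overlap for 16 lower and 2 higher genes, where 11.8% and 12.5% of all genes did so. Without wild-type library 3 this count was 16 lower and 5 higher, against 19.7% and 19.7% of all genes.

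**Figure D2:**
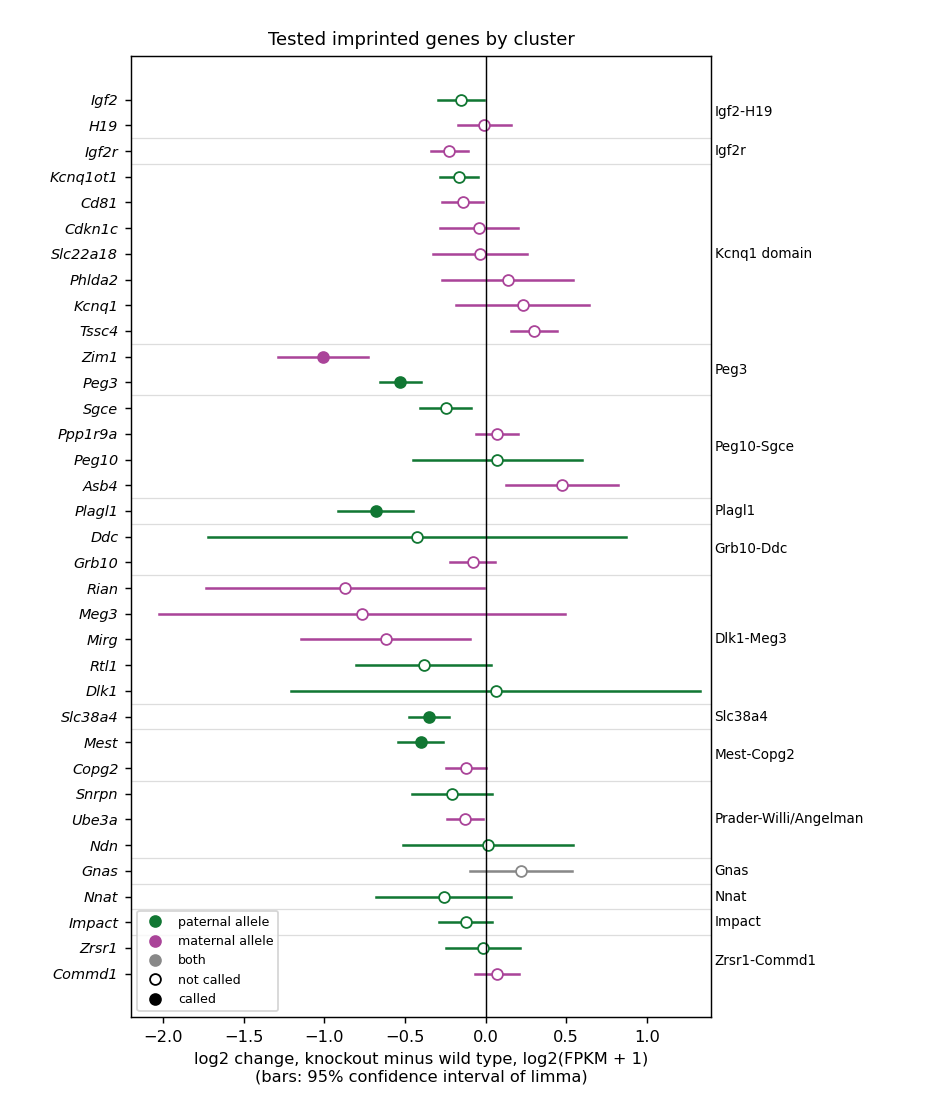
Log2 change (knockout minus wild type) with its 95% interval for each of the 35 tested imprinted genes, grouped by cluster and coloured by the expressed parental copy, called genes filled. Zim1 reaches -1.01 and Plagl1 -0.68, and the widest intervals belong to genes of the Dlk1-Meg3 cluster and to Ddc.

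The growth axis of Igf2 showed small differences. Igf2 encodes the fetal growth factor IGF-II, H19 a maternally expressed noncoding RNA that shares its enhancers, and Igf2r the receptor that takes IGF-II up for degradation. Igf2 (chr7:142650766-142666816) read 158, 157 and 171 FPKM in wild type and 139, 149 and 149 FPKM in knockout, without overlap. Its log2 change of -0.15 did not pass (limma, adjusted p = 0.276). A gene model on the same strand shares 3284 bases of exon with Igf2, so how the quantification split those reads is uncertain. H19 (chr7:142575529-142578143), at rank 51 of all genes the most abundant imprinted RNA of the set, read 1466, 1408 and 1610 FPKM in wild type and 1453, 1511 and 1491 FPKM in knockout. The groups overlapped and the log2 change was -0.01 (95% interval -0.17 to 0.16, adjusted p = 0.970). Igf2r (chr17:12682406-12769664), maternally expressed, read 70.7, 73.6 and 75.2 FPKM against 63.2, 61.3 and 62.5 FPKM. It did not overlap between groups, with a log2 change of -0.23 that missed the threshold (limma, adjusted p = 0.104).

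Ratios taken within a library do not depend on the scaling between libraries. H19 stood at 9.29, 8.95 and 9.40 times Igf2 in wild type and at 10.4, 10.1 and 10.03 times Igf2 in knockout. The ratio was higher in all 3 knockout libraries than in all 3 wild-type libraries, by 0.15 on the log2 scale (exact two-sided permutation test, p = 0.1, the smallest that 20 assignments allow, and 0.4 after adjustment over 8 ratios). Igf2 to Igf2r was 2.23, 2.14 and 2.28 in wild type and 2.20, 2.43 and 2.38 in knockout, which overlapped (exact permutation p = 0.3, adjusted 0.6). The gap of H19 to Igf2 is small, and with 3 libraries a group no ratio could pass 0.05.

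**Figure D3:**
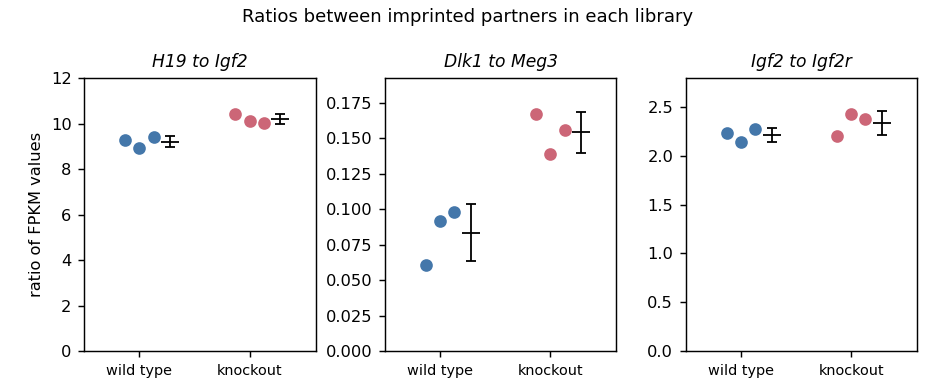
Ratio of 2 FPKM values within each library (points, replicates 1 to 3 from left to right) with the group mean and SD (bars) for H19 to Igf2, Dlk1 to Meg3 and Igf2 to Igf2r, wild type beside knockout. H19 to Igf2 (8.95 to 9.40 against 10.03 to 10.4) and Dlk1 to Meg3 (0.0609 to 0.0980 against 0.139 to 0.167) do not overlap between groups, and Igf2 to Igf2r does.

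Genes of the Kcnq1 domain on chromosome 7, which holds growth-restraining genes kept silent on the paternal copy by the noncoding RNA Kcnq1ot1, were not called. Kcnq1ot1 (chr7:143203458-143296549) read 46.8, 44.8 and 45.0 FPKM in wild type and 42.0, 39.8 and 39.4 FPKM in knockout, below in every library, with a log2 change of -0.17 (limma, adjusted p = 0.191). Cdkn1c, which encodes the cell cycle inhibitor p57, read 276, 343 and 360 FPKM against 306, 306 and 334 FPKM. These overlapped, and the log2 change was -0.04 (95% interval -0.28 to 0.20) and 0.03 without wild-type library 3. Phlda2, a restraint on placental growth, read 1.56, 1.17 and 2.36 FPKM against 1.61, 2.35 and 1.85 FPKM, and also overlapped (log2 change 0.14, and 0.31 without wild-type library 3). The ratio of Cdkn1c to Phlda2 did so too (exact permutation p = 0.6).

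The edges of that domain pointed both ways. Cd81, a tetraspanin of the cell surface, read 184, 173 and 176 FPKM in wild type and 156, 167 and 159 FPKM in knockout (log2 change -0.14, limma, adjusted p = 0.272). Tssc4, linked to the spliceosome, read 23.7, 25.3 and 25.9 FPKM against 29.9, 30.0 and 32.8 FPKM, higher in all knockout libraries (log2 change 0.30, limma, adjusted p = 0.0936). The exons of Tssc4 overlap those of Trpm5 on the other strand by 217 bases, and since the kit's handling of strand is not given, reads there cannot be told apart. Trpm5 itself read 3.11 to 3.81 FPKM in wild type and 2.11 to 2.39 in knockout, opposite in direction. Kcnq1, a potassium channel gene, ran from 3.97 to 5.26 FPKM against 4.23 to 7.19. It shares 121 bases of exon with the more abundant Kcnq1ot1 on the other strand, and its value is uncertain there. Slc22a18, a transporter gene, ran from 1.99 to 2.03 against 1.58 to 2.49. Ascl2, a placental transcription factor, stayed between 0.0888 and 0.293 FPKM and was not tested.

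In the Peg10-Sgce cluster on chromosome 6, neighbouring genes differed in direction and none was called with all libraries. Sgce, the gene for epsilon-sarcoglycan of the muscle membrane complex, read 13.6, 12.3 and 13.96 FPKM in wild type and 11.02, 10.9 and 11.1 FPKM in knockout (log2 change -0.25, limma, adjusted p = 0.169, and -0.21 without wild-type library 3). Peg10, derived from a retrotransposon and required in placenta, starts beside Sgce and read 7.44, 10.9 and 14.4 FPKM against 11.5, 11.5 and 10.5 FPKM (log2 change 0.07, and 0.28 without wild-type library 3). Sgce did not overlap between groups and Peg10 did. Asb4, a maternally expressed ubiquitin ligase adaptor, read 7.82, 8.43 and 12.2 FPKM in wild type and 12.5, 13.4 and 13.99 FPKM in knockout. All 3 knockout libraries were above wild type, with a log2 change of 0.47 (limma, adjusted p = 0.209). Without wild-type library 3, which was the highest of its group, the change was 0.65 and passed (adjusted p = 0.0232). Ppp1r9a, an actin-binding scaffold gene, ran from 31.1 to 34.9 FPKM against 34.1 to 34.6. Peg10 to Sgce was 0.548, 0.886 and 1.03 in wild type against 1.04, 1.06 and 0.948 in knockout, which overlapped (exact permutation p = 0.2, adjusted 0.533).

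In the Dlk1-Meg3 cluster on chromosome 12, wild-type library 3 was the highest library for all 5 genes. Meg3, Rian and Mirg are maternally expressed noncoding RNAs that host microRNAs and small nucleolar RNAs, while Dlk1 (a membrane ligand that holds back differentiation) and Rtl1 come from the paternal copy. Rian read 65.9, 66.2 and 134 FPKM in wild type and 47.8, 40.3 and 48.2 FPKM in knockout. Meg3 read 36.6, 26.5 and 82.3 FPKM against 31.9, 20.5 and 23.6 FPKM, and Mirg read 5.36, 5.50 and 9.75 against 4.70, 3.44 and 3.82. Rian and Mirg did not overlap between groups and Meg3 did. Their log2 changes were -0.87, -0.77 and -0.62 for Rian, Meg3 and Mirg (limma, adjusted p = 0.307, 0.496 and 0.253), and -0.54, -0.31 and -0.37 without wild-type library 3 (adjusted p = 0.0554, 0.554 and 0.182).

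Dlk1 read 2.23, 2.43 and 8.06 FPKM in wild type and 5.34, 2.84 and 3.68 FPKM in knockout. Its log2 change was 0.06 with all libraries, and 0.54 without wild-type library 3 (limma, adjusted p = 0.963 and 0.228). Taken within each library, Dlk1 stood at 0.0609, 0.0915 and 0.0980 of Meg3 in wild type and at 0.167, 0.139 and 0.156 of Meg3 in knockout. This ratio was higher in every knockout library, wild-type library 3 included, by 0.91 on the log2 scale (exact permutation p = 0.1, the smallest possible, adjusted 0.4). The ratios of Rian to Meg3 and of Mirg to Meg3 overlapped (exact permutation p = 0.8 for each, adjusted 0.8). Rtl1, derived from a retrotransposon and needed in fetal capillaries of the placenta, ran from 2.47 to 4.38 FPKM against 1.83 to 2.32 (log2 change -0.38, and -0.17 without wild-type library 3). MicroRNAs and small nucleolar RNAs lie in the exons of these genes and are not separated here.

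Across the set, wild-type library 3 was the highest of the 6 libraries for 24 of 35 tested imprinted genes (68.6%), against 15.1% of all genes. It was highest for 14 of 16 paternally and 9 of 18 maternally expressed genes. Among broadly imprinted genes these counts were 13 of 15 and 9 of 10. Of the 8 tested maternally expressed genes with restricted imprinting, it was highest for 0. Ddc, the aromatic amino acid decarboxylase that chromaffin cells use, read 11.1 FPKM in this library and 2.69 to 4.59 in the other 5. Its log2 change was -0.43 with this library, and 0.04 without it. Th, the enzyme before Ddc in the same pathway, read 17.8 FPKM there and 0.0380 to 0.0918 elsewhere. The part of such RNA in the levels of this library was not tested.

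**Figure D4:**
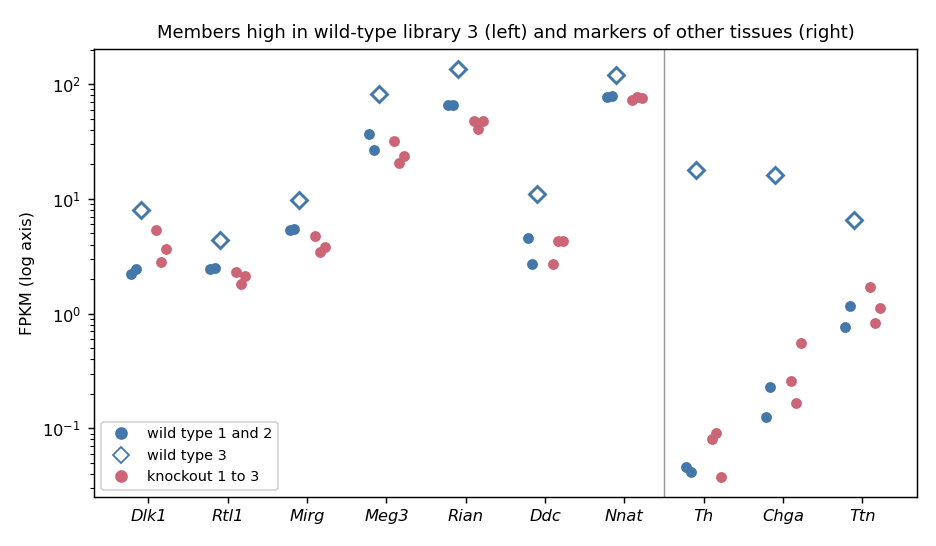
FPKM in each library on a log axis for the 5 genes of the Dlk1-Meg3 cluster, Ddc and Nnat (left), and for the chromaffin markers Th and Chga and the muscle marker Ttn (right), with wild-type library 3 as open diamonds. That library lies above the other 5 for each gene shown, as for Dlk1 (8.06 FPKM), Ddc (11.1), Rian (134), Meg3 (82.3) and the marker Th (17.8).

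Among the genes of the Prader-Willi/Angelman region on chromosome 7, Ube3a, a ubiquitin ligase imprinted in neurons, read 50.8, 52.2 and 50.7 FPKM in wild type and 45.3, 47.1 and 48.1 FPKM in knockout. The knockout libraries were lower throughout, but the log2 change of -0.13 did not pass (limma, adjusted p = 0.267). The exons of Ube3a overlap Snhg14 on the other strand, the long noncoding RNA that silences the paternal Ube3a copy in neurons. Snhg14 read 61.0 FPKM in wild-type library 3 and 21.5 to 25.8 in the others. Snrpn, a small nuclear ribonucleoprotein gene, ran from 10.96 to 14.8 FPKM against 10.3 to 11.4, and Ndn, which encodes necdin, from 30.0 to 52.8 against 37.0 to 42.5. Both overlapped. Their log2 changes were -0.21 and 0.01, and -0.10 and 0.21 without wild-type library 3. Snrpn shares exons with Snurf on the same strand, so its value is uncertain in the same way. Magel2 ran from 0.226 to 0.558 FPKM and was not tested.

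The remaining genes are single loci or small clusters. Gnas, which encodes the stimulatory G protein subunit and other transcripts, read 310, 390 and 461 FPKM in wild type and 450, 438 and 443 FPKM in knockout. The wild-type libraries were widely spread and the groups overlapped (log2 change 0.22, limma, adjusted p = 0.467). Leaving out wild-type library 1 gave 0.07 and leaving out library 3 gave 0.35 (adjusted p = 0.774 and 0.154), and without library 3 the groups did not overlap. Nespas, on the other strand, shares 832 bases of exon with Gnas and ran from 14.9 to 20.2 FPKM, so reads there cannot be told apart. Nnat, neuronatin, read 77.6, 79.4 and 120 FPKM in wild type and 72.8, 76.8 and 76.3 FPKM in knockout, without overlap. Its log2 change was -0.26, and -0.06 without wild-type library 3. Grb10, an adaptor that dampens insulin and IGF receptor signalling and lies beside Ddc, read 303, 282 and 310 FPKM against 275, 280 and 289 FPKM, and overlapped. Copg2, a coat protein gene whose exons overlap those of Mest by 912 bases on the other strand, where reads again cannot be told apart, read 31.9, 31.9 and 30.2 FPKM against 28.4, 29.7 and 27.996 FPKM (log2 change -0.12, limma, adjusted p = 0.310).

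Commd1, a trafficking gene with Zrsr1 inside it, read 72.0, 70.6 and 67.7 FPKM in wild type and 69.5, 75.1 and 76.7 FPKM in knockout, and overlapped. Zrsr1, a splicing factor gene, ran from 5.09 to 5.73 FPKM against 4.71 to 6.04, and 209 of its exon bases lie opposite the more abundant Commd1. Impact, a regulator of translation, ran from 18.5 to 21.3 against 17.6 to 19.3. None of the genes in these loci was called other than Mest.

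Factors that set or keep imprints were measured in the same libraries. Of 17 such genes, 15 were tested and 0 were called, with 2 lower and 2 higher at an unadjusted p under 0.05 (limma), where 6.94% and 9.14% of all genes were. Zfp57, the zinc finger protein that recognises TGCCGC, had the smallest p of the list and read 17.1, 14.8 and 17.6 FPKM in wild type and 11.7, 10.4 and 12.3 FPKM in knockout. It did not overlap between groups, and its log2 change of -0.48 missed the threshold (limma, adjusted p = 0.0684). Ehmt2, a histone H3 lysine methyltransferase, read 31.3, 39.1 and 42.1 FPKM against 52.6, 49.4 and 49.7 FPKM (log2 change 0.43, limma, adjusted p = 0.138). DNA methylation was not measured.

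A further 36 genes reported as imprinted in mouse were taken as a second list. Of the 34 in the table, 30 were tested and 0 were called, with 5 lower and 1 higher at an unadjusted p under 0.05 (limma), where 6.94% and 9.14% of all genes were. The log2 change was below 0 in 22 of the 30, against 50.4% of all genes, with a median of -0.08. Wild-type library 3 was the highest library for 13 of the 30 (43.3%, against 15.1% of all genes) and the lowest for 2. The count below 0 and the median of this list were not taken without that library, so its part in them is not known. Dcn, a matrix proteoglycan made by stroma and also one of the stroma markers, read 52.8, 49.3 and 81.9 FPKM in wild type and 28.6, 26.8 and 32.6 FPKM in knockout. The groups did not overlap, at a log2 change of -1.01 (limma, adjusted p = 0.145). It passed without wild-type library 3, at -0.78 (adjusted p = 0.0201). Pon2, a lactonase gene, read 18.2, 16.5 and 18.7 FPKM against 21.1, 21.3 and 21.2 FPKM (log2 change 0.24, limma, adjusted p = 0.152).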

How the data were processed

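RNA from 3 knockout and 3 wild-type kidney libraries was analysed. The submitters' processing notes name bcl2fastq 2.17.1.14, Salmon (no version) and GRCm38 (mm10). Annotation release, gene summing, filters and strand handling were not given in the sources used here. FPKM values of 24749 genes were deposited by the authors, without counts, so depth is approximate and no count model was run. These were transformed to log2(FPKM + 1) and filtered at a mean of 0.5 FPKM. Genotype was the single term in limma 3.58.1 (R 4.3.3, trend and robust options), with Benjamini-Hochberg adjustment over all genes tested and a threshold of 0.05. Log2 changes are knockout minus wild type and understate low genes. Ratios were tested by exact two-sided permutation over 20 assignments. The fit was tested on simulated data. Gene positions and overlaps are from GENCODE M21 (21 of the imprinted genes share exon bases with another gene model), and promoter windows are from RefSeq. Members, lists and markers were chosen with earlier results of these data known. Values in every library are given for called genes, genes with an unadjusted p under 0.05, the 12 most abundant and both genes of each ratio. From each list the 2 genes with the smallest p are named. The pseudocount, filter, scaling, moderation, replicate block and libraries were varied.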

Additional observations from a re-analysis of the deposited data

How the results depend on the processing

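The number of all genes called was 124, from 52 to 147 when 1 library was left out, and 32 with replicate number as a block. The number of imprinted genes called lower was 5, became 3 with libraries rescaled to equal sums and 0 with the replicate block, and ran from 1 to 3 without 1 library. No label pairs the libraries by replicate number. Same-numbered deviations correlated at 0.02, -0.04 and 0.05, and other-numbered ones from -0.09 to 0.08. Wild-type libraries 1 and 3 correlated best with their own number, and wild-type library 2 did not. Whether the numbers mark pairs cannot be told from 3 libraries a group. With the block, adjusted p was 0.0672 for Peg3, 0.0815 for Zim1, 0.109 for Plagl1, 0.171 for Slc38a4 and 0.184 for Mest (limma). Without 1 library, 0 to 1 imprinted genes were called higher, 0 to 1 genes of the further imprinted list were called, the paternal median ran from -0.27 to -0.11, and 2 to 4 ratios did not overlap, against 2 with all libraries. The sign was the same under each of up to 13 alternatives for 26 of the 35 tested imprinted genes. Cdkn1c turned to 0.0095 under quantile normalization and Ndn to -0.0057 with equal sums. Without 1 library, the log2 change crossed 0 for H19 (-0.0493 to 0.0471), Slc22a18 (-0.16 to 0.0584), Phlda2 (-0.00729 to 0.307), Cdkn1c (-0.157 to 0.0321), Peg10 (-0.156 to 0.28), Ddc (-0.811 to 0.0435), Dlk1 (-0.200 to 0.543), Ndn (-0.187 to 0.211) and Zrsr1 (-0.0933 to 0.0568). The cause was not tested. With 3 libraries a group, no ratio could reach a p under 0.1.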
